A study of Mus musculus with 18 samples.

Results

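Granzymes and perforin are the killing proteins of cytotoxic lymphocytes, and 9 of their genes were followed across 18 mouse melanoma libraries: the granzyme genes Gzma, Gzmb, Gzmc, Gzmd, Gzme, Gzmf, Gzmk and Gzmm and the perforin gene Prf1. They were chosen by name and matched by Ensembl gene ID, and all 9 were found among the 37620 gene IDs of the count files. The IDs are ENSMUSG00000023132 (Gzma), ENSMUSG00000015437 (Gzmb), ENSMUSG00000079186 (Gzmc), ENSMUSG00000059256 (Gzmd), ENSMUSG00000022156 (Gzme), ENSMUSG00000015441 (Gzmf), ENSMUSG00000042385 (Gzmk), ENSMUSG00000054206 (Gzmm) and ENSMUSG00000037202 (Prf1). In the study, MO4 cells, an ovalbumin-carrying derivative of the B16F10 melanoma line, were inoculated subcutaneously in the right and the left hindlimb of C57BL/6 mice (100000 cells in each, day 0), and RNA of the whole tumour tissue was extracted on day 11. The 6 groups held 3 libraries each. Right IFN-alpha-pMC tumours had IFN-α-iPSC-pMCs, cells derived from induced pluripotent stem cells and marked IFN-α, injected beside them on days 5, 6 and 7 (1000000 cells each time). Right pMC tumours had iPSC-pMCs without that mark injected at the same times. Right control tumours received no treatment. The left IFN-alpha-pMC, left pMC and left control tumours were the distant tumours on the other hindlimb of such mice, and no cells were injected beside them. The mark's construct, the interferon dose and the species of the injected cells are not stated in the labels. The labels also do not say that the libraries of a group came from separate mice, so every p-value measures the spread between these samples, which may be technical.

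A killer lymphocyte stores perforin and granzymes in acidic secretory granules and releases them into the contact with a target cell. Perforin forms pores in the target membrane, and granzymes, which are serine proteases, enter through them and cleave proteins of the target. Granzyme B cuts after aspartate and starts the caspase pathway, granzyme A cuts after basic residues, and the granzymes of the rodent C to G group are known from strongly stimulated T cells and natural killer (NK) cells. In melanoma, transcripts of these genes are used as a readout of infiltrating CD8+ T cells and NK cells.

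Levels are given as CPM, the count of a gene scaled to a library total of 1000000 gene counts, and group means as mean ± SD over 3 libraries. Library totals lay between 14.35 and 23.43 times 1000000 counts, and where a gene has no count in a library the limit of 3 counts is worth 0.128 to 0.209 CPM, which covers counting error only. Fold changes are log2 values ± SE from edgeR's quasi-likelihood test across 14849 genes, with Benjamini-Hochberg adjustment over all of them, and a gene was called where its adjusted p was under 0.05. Of the 9 genes, 7 passed the filter on low counts, while Gzme and Gzmf did not and were described by counts. Gzmc and Gzmd passed only through right IFN-alpha-pMC, where they had 176 to 234 and 19 to 62 counts a library. In no library outside that group did Gzmc exceed 10 counts or Gzmd 8, so their calls follow a filter set by that group. Within groups, Spearman correlations between libraries over all genes were lowest in IFN-alpha-pMC tumours of the right (0.962 to 0.994) and left side (0.964 to 0.995) and in right control (0.936 to 0.981). Library 3 of right IFN-alpha-pMC, library 1 of left IFN-alpha-pMC and library 3 of right control stood apart in earlier results of these data, and results that rest on them are given with and without them. Read pairs in no annotated feature made up 4.04 to 6.12% of every IFN-alpha-pMC library and 6.87 to 12.21% of every other library, and this share cannot be told apart from the treatment. As for the labelled tissue, the 11 melanocyte lineage markers summed to 33100 to 37500 CPM in right IFN-alpha-pMC libraries, 39500 to 44200 CPM in right pMC libraries and 34100 to 41800 CPM in right control libraries, and 0 of the 11 were called in any comparison.

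Most of these genes lie together. In RefSeq's annotation of GRCm38.p6, Gzme, Gzmd, Gzmg, Gzmn, Gzmf, Gzmc and Gzmb follow each other in this order on chromosome 14, Gzma is on chromosome 13, and Prf1 and Gzmm are on chromosome 10. The start regions of the C to G group are shown because they are near copies of each other and because these genes were found to be high in the same libraries. The sequences are the 150 bases before the annotated start, from RefSeq and build GRCm38.p6, whereas the counts were made on mm9. Capitals mark the runs of at least 12 bases that are the same letter for letter in Gzmc, Gzmd, Gzme, Gzmf and Gzmg.
Gzmc (chr14:56234658-56234807, minus strand): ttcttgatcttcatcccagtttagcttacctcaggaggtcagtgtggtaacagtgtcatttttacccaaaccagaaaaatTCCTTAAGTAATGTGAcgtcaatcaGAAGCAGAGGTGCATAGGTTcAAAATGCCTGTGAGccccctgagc
Gzmd (chr14:56132594-56132743, minus strand): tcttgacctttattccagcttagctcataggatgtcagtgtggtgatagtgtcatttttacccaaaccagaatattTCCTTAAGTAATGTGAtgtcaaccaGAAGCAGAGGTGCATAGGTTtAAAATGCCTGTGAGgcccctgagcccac
Gzme (chr14:56120626-56120775, minus strand): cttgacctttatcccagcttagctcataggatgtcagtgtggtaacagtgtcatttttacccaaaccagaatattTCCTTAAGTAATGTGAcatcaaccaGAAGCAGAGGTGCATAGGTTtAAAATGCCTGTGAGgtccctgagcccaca
Gzmf (chr14:56211408-56211557, minus strand): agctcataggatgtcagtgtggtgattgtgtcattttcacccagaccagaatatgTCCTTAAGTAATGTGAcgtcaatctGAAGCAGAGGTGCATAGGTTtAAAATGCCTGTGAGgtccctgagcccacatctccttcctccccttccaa
The 3 marked runs are 16, 20 and 14 bases long, and each was found in 5 of 32851 promoter windows of RefSeq, those of these 5 genes.

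The start regions of the 3 genes with the highest levels share no such runs and are shown for comparison, from the same source. Here capitals mark TGTGGT on either strand, the core letters bound by RUNX factors, one of which, Runx3, is a regulator of killer lymphocyte genes.
Gzmb (chr14:56262335-56262484, minus strand): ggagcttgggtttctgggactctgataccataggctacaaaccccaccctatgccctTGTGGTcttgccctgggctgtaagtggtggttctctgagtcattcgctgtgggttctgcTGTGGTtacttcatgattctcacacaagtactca
Gzma (chr13:113100982-113101131, minus strand): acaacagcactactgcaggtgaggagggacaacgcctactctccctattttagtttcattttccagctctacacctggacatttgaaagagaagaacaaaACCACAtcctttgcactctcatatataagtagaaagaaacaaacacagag
Prf1 (chr10:61297686-61297835, plus strand): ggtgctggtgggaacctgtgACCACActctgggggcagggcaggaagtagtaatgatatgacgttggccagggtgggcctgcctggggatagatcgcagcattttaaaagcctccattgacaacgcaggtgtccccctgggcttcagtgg
Over 250 bases before the start and on both strands, TGTGGT was found in 9 of 12 windows of the family (the 9 genes, Gzmg, Gzmn and a second start of Gzmm) and in 14% of all 32851 windows. The ETS core CAGGAAGT was found in 6 of 12 and in 2.69% of all windows, and the letters TGACGTC of a cAMP response element in 3 of 12 and 2.78%. The AP-1 letters TGANTCA, the gamma-activated site TTCNNNGAA, the interferon-stimulated response element and the TATA letters TATAAA were each found in 1 of 12 windows, against 6.75, 7.02, 2.98 and 12.4% of all windows, and the T-box letters AGGTGTG in 0 of 12 against 5.1%. The 5 near copies count as 5 of the 12, no match of one motif overlapped a match of another, TGACGTC matched both strands at the same place, and a match is only a match of letters.

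Beside injected IFN-alpha-pMC, Gzma, Gzmb, Gzmc, Gzmk and Prf1 stood above right control and right pMC tumours by far more than the spread between libraries, and Gzmd was called as well. The edgeR test called 6 of 9 genes higher against right control (8.78% of all genes tested were called higher and 2.01% lower) and 6 of 9 against right pMC (8.88% higher and 1.21% lower), and called 0 of 9 lower in both. Of the genes called, Gzmc and Gzmd had passed the filter only through right IFN-alpha-pMC. Gzma and Gzmb, which held most of the family's counts, had 49.2 and 51.4 times the counts per library total of right control. Gzmm, a granzyme known from NK cells, was not called, and its libraries overlapped between all 3 right groups. Without the 3 libraries that stood apart, 7 of 9 were called in both comparisons, but so were 8175 of all genes over right control (1601 with all libraries) and 4287 over right pMC (1497 with all libraries).

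**Figure D1:**
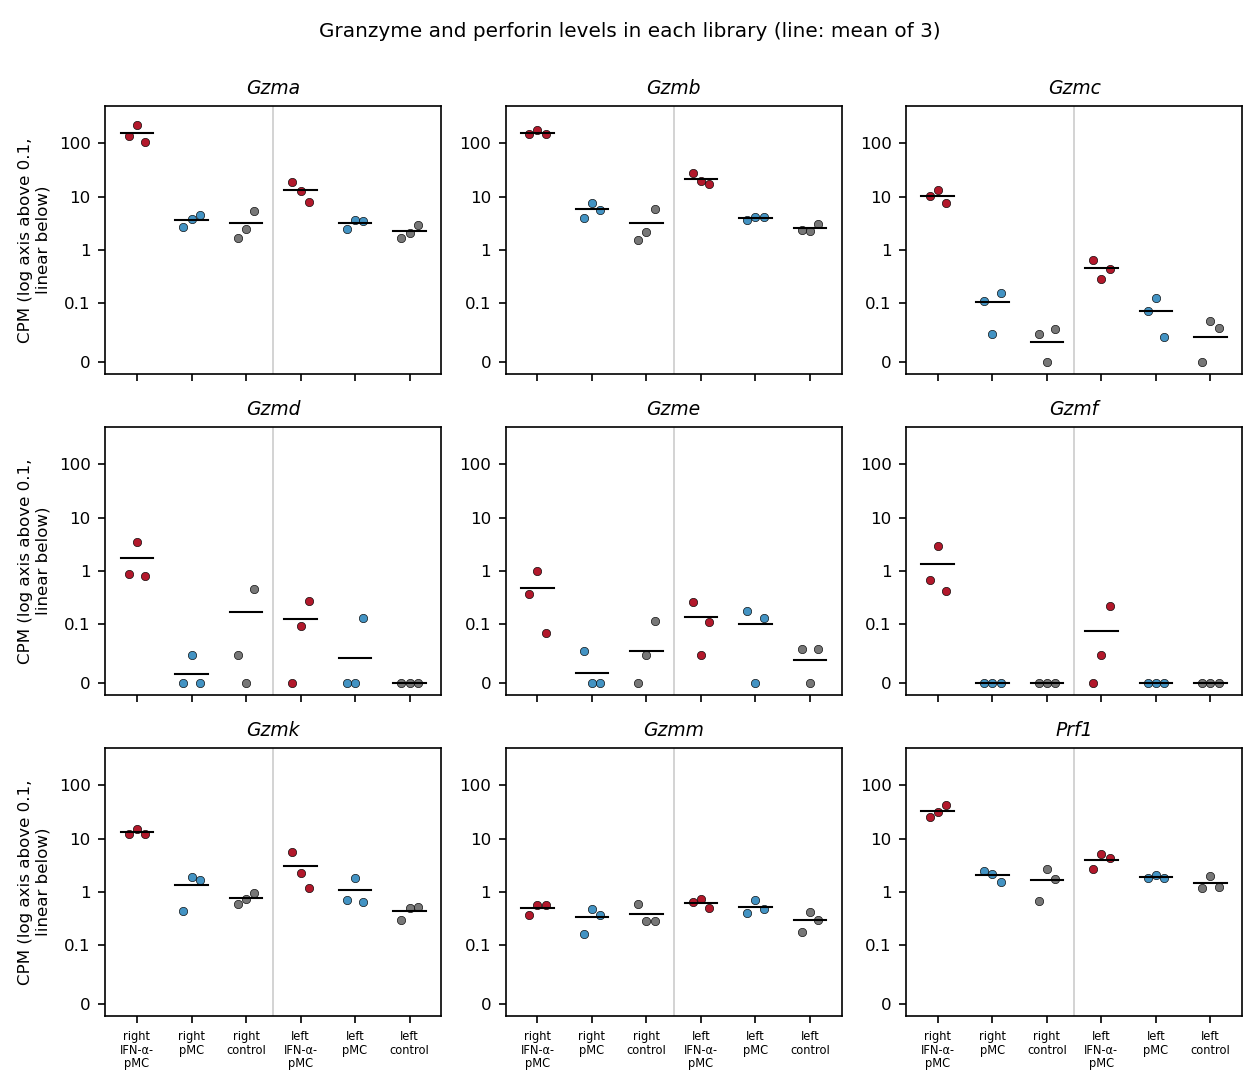
Level of each gene (CPM, log axis above 0.1 and linear below) in every library of the 6 groups, right groups on the left of each panel, with the mean of 3 libraries as a line. Gzma, Gzmb, Gzmc, Gzmk and Prf1 are highest in all 3 right IFN-alpha-pMC libraries, and Gzma, Gzmb and Gzmc are next in left IFN-alpha-pMC libraries. Prf1 is at 2.63 CPM in left IFN-alpha-pMC 1, below right control 2 (2.69 CPM). Gzmm stays between 0.165 and 0.726 CPM in all 18 libraries.

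Perforin came first in role. Prf1 had 25, 31.8 and 42.5 CPM in right IFN-alpha-pMC libraries 1 to 3, 2.42, 2.17 and 1.55 CPM in right pMC libraries and 0.679, 2.69 and 1.71 CPM in right control libraries. All 3 IFN-alpha-pMC values were above every other right value, and pMC and control overlapped. The group means were 33.1 ± 8.81 CPM in right IFN-alpha-pMC and 1.69 ± 1.0 CPM in right control, a log2 fold change of 4.30 ± 0.37 (adjusted p = 2.96e-06), and the log2 fold change against right pMC was 3.97 ± 0.36 (adjusted p = 4.46e-06). Library 3, one of those that stood apart, held the highest Prf1 level of the group and the lowest Gzma level. Without it the order was the same for both genes, as library 2 was above library 1 for Gzma too (223 and 140 CPM).

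Gzmb encodes granzyme B, the aspartate-cutting protease that acts on caspases. It had 148, 178 and 150 CPM in right IFN-alpha-pMC libraries, 3.96, 7.73 and 5.65 CPM in right pMC libraries and 1.55, 2.21 and 5.82 CPM in right control libraries. The IFN-alpha-pMC values lay close together and far above the rest, while 1 control library reached the pMC range. Gzmb was higher by 5.63 ± 0.46 (log2) against right control (adjusted p = 2.76e-06) and 4.74 ± 0.43 against right pMC (adjusted p = 4.46e-06).

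Gzma encodes granzyme A, the tryptase of the family. It had 140, 223 and 105 CPM in right IFN-alpha-pMC libraries, 2.64, 3.77 and 4.51 CPM in right pMC libraries and 1.65, 2.45 and 5.42 CPM in right control libraries. No pMC or control library reached the IFN-alpha-pMC range, within which library 2 stood well above library 3. For Gzma the log2 fold change was 5.64 ± 0.51 against right control (adjusted p = 4.96e-06) and 5.40 ± 0.50 against right pMC (adjusted p = 5.15e-06). In both control groups and both pMC groups a low level of Gzma and Gzmb was measured in every library, between 1.55 and 7.73 CPM.

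Gzmk encodes granzyme K, a second tryptase, known from memory-type CD8+ T cells. It had 12, 15 and 12 CPM in right IFN-alpha-pMC libraries, 0.44, 1.93 and 1.66 CPM in right pMC libraries and 0.582, 0.719 and 0.971 CPM in right control libraries. No pMC or control value came near the IFN-alpha-pMC values. Gzmk was higher by 4.12 ± 0.61 (log2) against right control (adjusted p = 0.000204) and 3.23 ± 0.57 against right pMC (adjusted p = 0.0011), and the call against right pMC was lost with muscle content in the model (2.89 ± 0.82, adjusted p = 0.0553).

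Gzmc, the rodent granzyme C gene, stood close to absence outside the IFN-alpha-pMC groups. It had 223, 234 and 176 counts in right IFN-alpha-pMC libraries, 2, 1 and 3 counts in right pMC libraries and 1, 0 and 1 counts in right control libraries. Over the group that is 633 counts against 2 in right control, a ratio of 297 per library total with an exact 95% interval of 81.9 to 2460, and the gene was called against right control (adjusted p = 1.45e-06). Against right pMC the log2 fold change was 6.55 ± 0.51 (adjusted p = 2.07e-06).

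Gzmd, Gzme and Gzmf, the neighbours of Gzmc on chromosome 14, were low everywhere and uneven within the group. Gzmd had 19, 62 and 19 counts in right IFN-alpha-pMC libraries, 0, 1 and 0 in right pMC libraries and 1, 0 and 8 in right control libraries. Its log2 fold change was 3.42 ± 0.99 against right control (adjusted p = 0.0385) and it was called against right pMC too, with 100 counts against 1, a ratio of 93.3 with an interval of 16.4 to 3720 (adjusted p = 0.00745). The call against control was lost without right control 1, right control 2 or right IFN-alpha-pMC 2 in turn (the highest adjusted p was 0.233), with DESeq2 (adjusted p = 0.104), with only the groups compared (0.205) and with muscle content in the model (0.194), where the call against right pMC was lost too (0.118).

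Gzmf had 15, 52 and 10 counts in right IFN-alpha-pMC libraries and 0 in each of the 3 right pMC and 3 right control libraries. Its 77 counts over the group were at least 24.1-fold higher than the 3 counts that a group total of 0 allows in right control. Gzme had 8, 17 and 2 counts in right IFN-alpha-pMC libraries, 1, 0 and 0 in right pMC libraries and 0, 1 and 2 in right control libraries, a ratio to right control of 8.44 with an interval of 2.6 to 43.5. Gzmg, which was not among the 9, had 6, 25 and 4 counts in right IFN-alpha-pMC libraries and 0 in right pMC and right control libraries, and Gzmn had at most 1 count in any library. Gzmd, Gzme, Gzmf and Gzmg each had their highest count of all 18 libraries in right IFN-alpha-pMC 2, which in CPM is also the library highest in Gzma, Gzmb, Gzmc and Gzmk but not in Prf1.

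**Figure D2:**
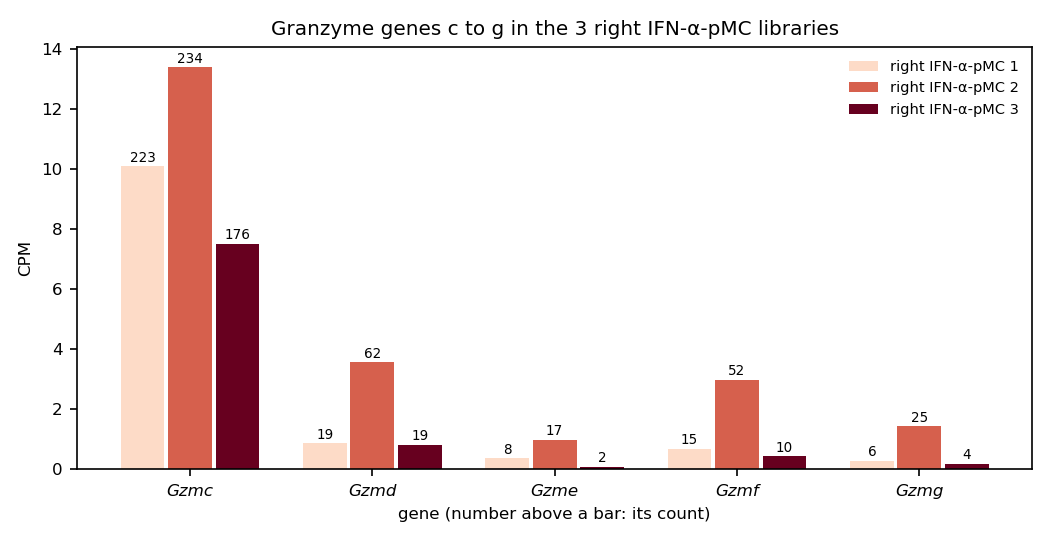
Level (CPM, bars) and count (number above each bar) of Gzmc, Gzmd, Gzme, Gzmf and Gzmg in the 3 right IFN-alpha-pMC libraries. Library 2 stands above the other two for all 5 genes, with 62 counts of Gzmd against 19 and 19 and 52 counts of Gzmf against 15 and 10.

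These neighbours resemble each other enough to ask whether reads could be assigned to them. In GENCODE M21 transcripts on GRCm38, Gzmd and Gzme were 95% identical over the aligned bases, Gzmd and Gzmf 89.1%, Gzmc and Gzmd 81.2% and Gzmb and Gzmc 79.7%. The first alignments logged by the counter span 87 to 100 bases, apart from longer spans in 2 files. Of all stretches of 100 bases in each transcript, 0% were shared letter for letter with another gene for 7 of the 9 genes, 0.231% for Gzmd (shared with Gzmg) and 6.71% for Gzmf (shared with Gm4022). How the authors' aligner treated stretches with a few mismatches was not tested, so counts of Gzmd, Gzme and Gzmf are uncertain against each other. Summing Gzmc, Gzmd, Gzme, Gzmf, Gzmg and Gzmn to 1 feature gave a log2 fold change of 5.78 ± 0.63 in right IFN-alpha-pMC over right control (adjusted p = 1.87e-05), 6.5 ± 0.67 over right pMC (adjusted p = 1.15e-05) and 2.77 ± 0.79 in left IFN-alpha-pMC over left control (adjusted p = 0.0483). Over left pMC the sum stood at 1.81 ± 0.68 and was not called (adjusted p = 0.0988).

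Gzmm had 0.364, 0.574 and 0.555 CPM in right IFN-alpha-pMC libraries, 0.165, 0.472 and 0.363 CPM in right pMC libraries and 0.582, 0.288 and 0.285 CPM in right control libraries. These are 3 to 13 counts a library, and the groups overlap. The log2 fold change was 0.38 ± 0.44 against right control (adjusted p = 0.681) and 0.51 ± 0.44 against right pMC (adjusted p = 0.602).

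**Figure D3:**
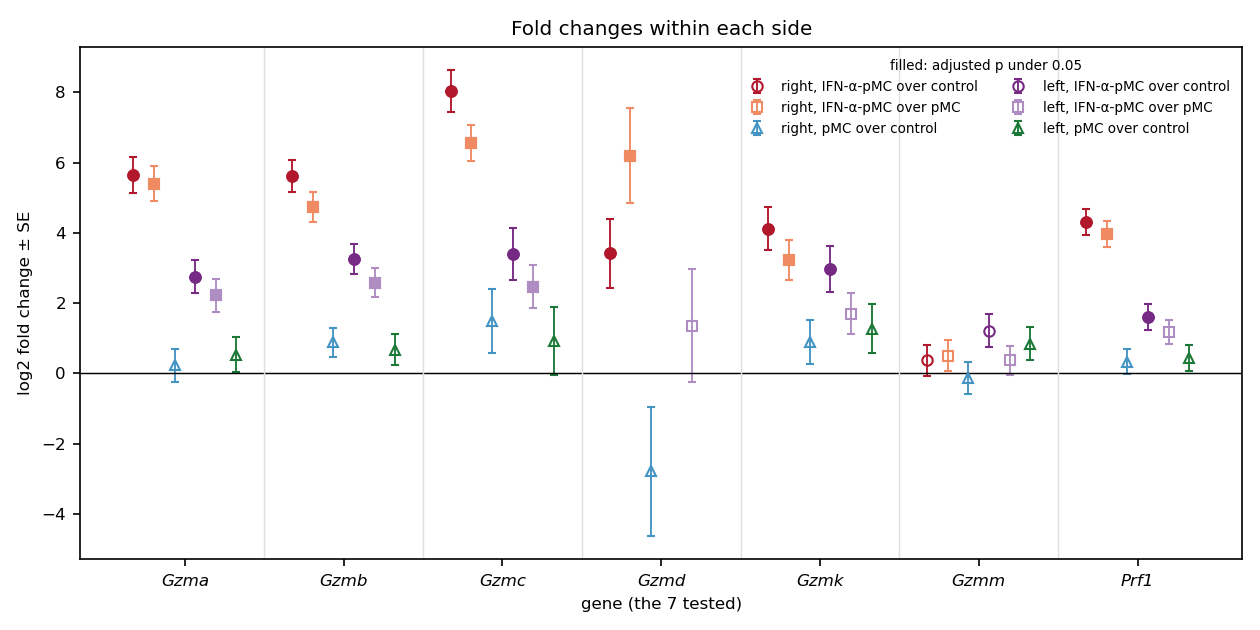
Log2 fold change ± SE of the 7 tested genes in 6 comparisons within a side, with filled symbols where the adjusted p was under 0.05. Folds against a group with 0 counts (Gzmd over left control) are not drawn. The highest value is that of Gzmc in right IFN-alpha-pMC over right control (8.04), which rests on 2 control counts, and every triangle (pMC over control) is open.

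The injected cells without the IFN-α mark moved none of these genes past the threshold. In right pMC over right control, 0 of 9 genes were called (0% of all genes were called), 1 of the 7 tested had an unadjusted p under 0.05 (Gzmb, log2 fold change 0.89 ± 0.41, adjusted p = 0.945), and DESeq2 called 0. Log2 fold changes were 0.24 ± 0.47 for Gzma, 0.90 ± 0.62 for Gzmk, 0.34 ± 0.36 for Prf1 and -0.13 ± 0.46 for Gzmm. Gzmc had 6 counts in all in right pMC and 2 in right control libraries, and Gzmd had 1 in right pMC and 9 in right control libraries. Without the 3 libraries that stood apart, 2 of 9 were called higher, Gzmb (1.77 ± 0.26, adjusted p = 0.00262) and Gzma (0.97 ± 0.34, adjusted p = 0.0388), but 5067 of all genes were then called as well, against 0 with all libraries. In left pMC over left control, 0 of 9 were called (0% of all genes), 0 had an unadjusted p under 0.05, and DESeq2 called 0.

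In the distant left tumours 5 of these genes were higher with IFN-alpha-pMC treatment than without. Against left control, 5 of 9 genes were called higher (4.05% of all genes were called higher and 2.6% lower), namely Gzma, Gzmb, Gzmc, Gzmk and Prf1. Against left pMC, 3 of 9 were called higher (2.71% of all genes were called higher and 1.14% lower), namely Gzma, Gzmb and Gzmc, and 0 were called lower in either comparison. Without the 3 libraries that stood apart, 5 and 4 of 9 were called, beside 4331 of all genes over left control (987 with all libraries) and 4142 over left pMC (572 with all libraries).

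Gzmb had 28.3, 19.9 and 17.2 CPM in left IFN-alpha-pMC libraries, 3.67, 4.2 and 4.15 CPM in left pMC libraries and 2.35, 2.3 and 3.05 CPM in left control libraries. The 3 groups did not overlap with each other. The log2 fold change was 3.26 ± 0.43 against left control (adjusted p = 0.00171) and 2.58 ± 0.41 against left pMC (adjusted p = 0.0053). The call against left control was kept under all 14 alternatives tried, and that against left pMC was lost only with muscle content in the model (2.60 ± 0.58, adjusted p = 0.0521).

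Gzma had 18.7, 13 and 8.1 CPM in left IFN-alpha-pMC libraries, 2.45, 3.57 and 3.45 CPM in left pMC libraries and 1.7, 2.09 and 2.88 CPM in left control libraries. Treated libraries lay above all others. The log2 fold change was 2.76 ± 0.48 against left control (adjusted p = 0.00671) and 2.22 ± 0.46 against left pMC (adjusted p = 0.0201), and the call against left pMC was lost without any 1 of the 3 left pMC libraries or left IFN-alpha-pMC 2 (highest adjusted p 0.101) and with muscle content in the model (0.0912).

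Gzmk had 5.65, 2.23 and 1.2 CPM in left IFN-alpha-pMC libraries, 0.7, 1.85 and 0.654 CPM in left pMC libraries and 0.293, 0.488 and 0.528 CPM in left control libraries. Library 1 was well above the other two, and the lowest treated library was inside the pMC range. The log2 fold change was 2.98 ± 0.66 against left control (adjusted p = 0.022) and 1.70 ± 0.59 against left pMC (adjusted p = 0.0837). The call against left control was lost without any 1 left control library or without left IFN-alpha-pMC 1 (highest adjusted p 0.103) and with muscle content in the model (0.0985). Against left pMC, Gzmk was called with DESeq2 (1.72 ± 0.60, adjusted p = 0.037).

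Prf1 had 2.63, 5.18 and 4.3 CPM in left IFN-alpha-pMC libraries, 1.79, 2.1 and 1.83 CPM in left pMC libraries and 1.17, 1.95 and 1.23 CPM in left control libraries. Treated libraries lay above all others of the left side. Library 1, one of those that stood apart and the highest for Gzmk, was the lowest for Prf1. The log2 fold change was 1.62 ± 0.37 against left control (adjusted p = 0.0228) and 1.18 ± 0.35 against left pMC (adjusted p = 0.059). The call against left control was lost without any 1 left control library or without left IFN-alpha-pMC 2 (highest adjusted p 0.121). Against left pMC, Prf1 was called with DESeq2 (adjusted p = 0.0168), no filter on low counts (0.0499) and only the groups compared (0.0179). It was also called there without the 3 libraries that stood apart (0.0125).

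Gzmc had 10, 6 and 8 counts in left IFN-alpha-pMC libraries, 2, 2 and 1 in left pMC libraries and 0, 1 and 1 in left control libraries. Its 24 counts against 2 in left control are a ratio of 10.6 with an interval of 2.64 to 92.9, and the gene was called against left control (adjusted p = 0.0198) and against left pMC (log2 fold change 2.47 ± 0.62, adjusted p = 0.0398). The call against left control was lost without any 1 left control library or left IFN-alpha-pMC 1 (highest adjusted p 0.0919). It was also lost with muscle content in the model (0.0645). The call against left pMC was lost without any 1 of the 6 libraries (highest adjusted p 0.123) and with muscle content in the model (0.113). Only through right IFN-alpha-pMC did Gzmc pass the filter on low counts, so both left calls follow a filter set by that group. With only the groups compared, 4 genes were called over left control, against 5 with all groups.

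The other 4 genes had few counts on the left. Gzmm had 10, 15 and 9 counts in left IFN-alpha-pMC libraries, 9, 11 and 11 in left pMC libraries and 3, 6 and 5 in left control libraries (log2 fold change over left control 1.22 ± 0.46, adjusted p = 0.0855). Gzmd had 0, 2 and 5 counts, Gzme 4, 1 and 2 and Gzmf 0, 1 and 4 in left IFN-alpha-pMC libraries. In left pMC and left control libraries Gzmd had 3 and 0 counts in all, Gzme had 7 and 2, and Gzmf had 0 in both.

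Within the treated groups, right tumours held more of these transcripts than left tumours. In right over left IFN-alpha-pMC, 4 of 9 genes were called higher (2.49% of all genes were called higher and 0.0404% lower): Gzmc by 4.43 ± 0.43 (adjusted p = 0.000205), Gzma by 3.45 ± 0.45 (adjusted p = 0.000904), Prf1 by 2.94 ± 0.34 (adjusted p = 0.000788) and Gzmb by 2.74 ± 0.39 (adjusted p = 0.00132), all log2. Their right and left libraries did not overlap, and the 4 calls were kept under all 14 alternatives. Gzmk stood at 1.97 ± 0.54 (adjusted p = 0.0692), Gzmd at 3.65 ± 1.03 (adjusted p = 0.0921) and Gzmm at -0.42 ± 0.42 (adjusted p = 0.704). Gzmk was called without left IFN-alpha-pMC 1 (2.89 ± 0.53, adjusted p = 0.0189), with DESeq2 (1.92 ± 0.57, adjusted p = 0.0255) and with no filter on low counts (1.99 ± 0.47, adjusted p = 0.0213). Without the 3 libraries that stood apart 6 of 9 were called, beside 863 of all genes (375 with all libraries). In right over left pMC and in right over left control, 0 of 9 genes were called (0% of all genes in each), 0 had an unadjusted p under 0.05 and DESeq2 called 0.

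Whether the response to IFN-alpha-pMC itself differed between sides was tested as the right effect minus the left effect. Against control, 0 of 9 genes were called (0% of all genes), although 4 had an unadjusted p under 0.05 and DESeq2 called 3. The differences of log2 fold changes were 2.68 ± 0.50 for Prf1 (adjusted p = 0.0723), 2.88 ± 0.66 for Gzma (adjusted p = 0.137) and 2.37 ± 0.58 for Gzmb (adjusted p = 0.166). Against pMC, 2 of 9 were called (0.377% of all genes were called higher and 0.0135% lower), Prf1 with a difference of 2.79 ± 0.49 (adjusted p = 0.0245) and Gzma with 3.19 ± 0.63 (adjusted p = 0.0417). Both calls depend on single libraries: with 1 library left out, Gzma passed in 2 of 12 cases (adjusted p 0.0433 to 0.134) and Prf1 in 4 of 12 (0.0343 to 0.0965). Without right control 3, the difference against control was 3.62 ± 0.59 for Gzma (adjusted p = 0.0354) and 3.25 ± 0.42 for Gzmb (adjusted p = 0.00646). Without right control 2, that of Prf1 was 3.12 ± 0.51 (adjusted p = 0.0474). Without the 3 libraries that stood apart, 4 of 9 were called against control, Gzma, Gzmb, Gzmc and Prf1, beside 761 of all genes (0 with all libraries). In the same fit, against pMC, Prf1 was lost (2.43 ± 0.50, adjusted p = 0.0515) while Gzmb was called (2.55 ± 0.29, adjusted p = 0.00198).

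Gzma, Gzmb, Gzmc, Gzmk and Prf1 were each highest in right IFN-alpha-pMC, then in left IFN-alpha-pMC, then in right pMC. Right and left IFN-alpha-pMC did not overlap for these genes, and left IFN-alpha-pMC and right pMC overlapped, among them, only for Gzmk. Below that point neighbours overlapped, except that right control lay above left control for Gzmk. The order is by group means, and for Prf1 left IFN-alpha-pMC 1 (2.63 CPM) lay below right control 2 (2.69 CPM). All neighbours overlapped for Gzmm. The share of all genes whose groups separate in this way was not computed, so this order is a description only.

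Per kilobase of transcript, which allows levels of different genes to be compared, right IFN-alpha-pMC tumours had 178 ± 68.7 CPM per kb of Gzma, 110 ± 11.8 of Gzmb, 13.4 ± 3.56 of Prf1, 12.7 ± 1.69 of Gzmk, 11.6 ± 3.31 of Gzmc and 0.386 ± 0.0903 of Gzmm. In left IFN-alpha-pMC tumours Gzmb and Gzma stood together at 15.2 ± 4.02 and 15.1 ± 6.07 CPM per kb, above Gzmk at 2.94 ± 2.27 and Prf1 at 1.63 ± 0.522. In right control tumours Gzma (3.61 ± 2.27) and Gzmb (2.22 ± 1.6) led again, and Gzmc, at 0.0394 ± 0.0344, was below Gzmm at 0.299 ± 0.133. Gzmc thus ranked below Gzmm in right control and above it in right IFN-alpha-pMC tumours.

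Killer lymphocyte markers moved with these genes. The 14 T cell markers summed to 223 to 286 CPM in right IFN-alpha-pMC, 27.9 to 50.3 CPM in right pMC and 22.3 to 45 CPM in right control libraries, with 14 of 14 called higher over right control (median log2 fold change 2.89, against -0.03 over all genes). Cd3g was higher by 3.44 ± 0.30, Cd28 by 3.19 ± 0.33 and Cd8b1 by 3.28 ± 0.34, and the least certain, Cd3d, by 2.77 ± 0.57. Of the NK markers 11 of 14 were called higher (median 3.08), with sums of 110 to 168, 16.7 to 39.7 and 10.1 to 34.9 CPM in right IFN-alpha-pMC, right pMC and right control. Among them were Cd244a (3.10 ± 0.39), Klrb1c (3.06 ± 0.42) and Klrk1 (2.93 ± 0.42), and Xcl1 was not called (0.80 ± 0.54, adjusted p = 0.405). In left IFN-alpha-pMC over left control, 7 of 14 T cell markers (median 1.18) and 7 of 14 NK markers (median 1.92) were called higher, against 0.07 over all genes, and their sums were 61.8 to 77.9 and 35 to 85.4 CPM in left IFN-alpha-pMC against 23.4 to 42.3 and 13 to 21.5 CPM in left control libraries. Over left pMC, 3 of 14 T cell markers (median 0.90) and 2 of 14 NK markers (median 1.41) were called higher. In bulk tissue, more cells of a type and more RNA per cell cannot be told apart.

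The counts were therefore also set against the T cell markers of the same library. Gzmb had 66.1, 62.2 and 61.2 counts per 100 T cell marker counts in right IFN-alpha-pMC libraries, 14.2, 15.4 and 12.1 in right pMC libraries and 6.96, 4.9 and 15.2 in right control libraries. On the left it had 36.3, 28.4 and 27.9 in IFN-alpha-pMC libraries, 10.1, 8.82 and 11.1 in pMC libraries and 10, 6.43 and 7.22 in control libraries. On both sides the treated libraries lay above all others, and the right ones above the left ones. Gzmc had 4.1 ± 0.897 in right IFN-alpha-pMC, 0.274 ± 0.159 in right pMC and 0.122 ± 0.111 in right control.

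With library sizes replaced by summed T cell marker counts, 5 of 9 genes were called higher in right IFN-alpha-pMC over right control (0.195% of all genes were called higher and 95.3% lower, since the median of all genes shifts to -2.99). They were Gzmc (5.25 ± 0.78, on 2 control counts), Gzmb (2.81 ± 0.40), Gzma (2.77 ± 0.41), Prf1 (1.53 ± 0.44) and Gzmk (1.22 ± 0.49, lost without right control 2 at adjusted p = 0.0759). Gzmm was called lower (-2.60 ± 0.60, adjusted p = 0.00011), near the median of all genes. Over right pMC, 5 of 9 were called higher (0.465% of all genes higher, 92.9% lower): Gzma, Gzmb, Gzmc, Gzmd (on 1 right pMC count) and Prf1, with Gzmk at 0.76 ± 0.47 not called. Gzmm was called lower there too (-1.96 ± 0.60, adjusted p = 0.00267), where the median of all genes was -2.69. In left IFN-alpha-pMC over left control, 4 of 9 were called higher (0.613% of all genes higher, 65.1% lower), Gzmb by 1.97 ± 0.40, Gzma by 1.48 ± 0.40, Gzmc by 2.32 ± 0.92 and Gzmk by 1.67 ± 0.54. Prf1 was not (0.42 ± 0.45). Over left pMC, 2 of 9 were called higher (1.04% of all genes higher, 30.8% lower), Gzmb (1.62 ± 0.38) and Gzma (1.25 ± 0.39). With NK markers in place of T cell markers, the left calls of Gzmc and Gzmk over control and of Gzma over pMC were lost (adjusted p = 0.0733, 0.101 and 0.084). Gzmc over left control was also lost without left control 1 or 3 or left IFN-alpha-pMC 1 or 3 (highest adjusted p 0.114), and Gzmk without left IFN-alpha-pMC 1 (0.118). Over left pMC, Gzma was lost without left pMC 1 or left IFN-alpha-pMC 1 or 2 (highest adjusted p 0.106) and Gzmb without left IFN-alpha-pMC 2 (0.0614). Gzmd over right control was called without right control 3 (3.0 ± 1.36, adjusted p = 0.0315). In pMC over control, 0 of 9 genes were called on either side with this scaling (0% of all genes).

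**Figure D4:**
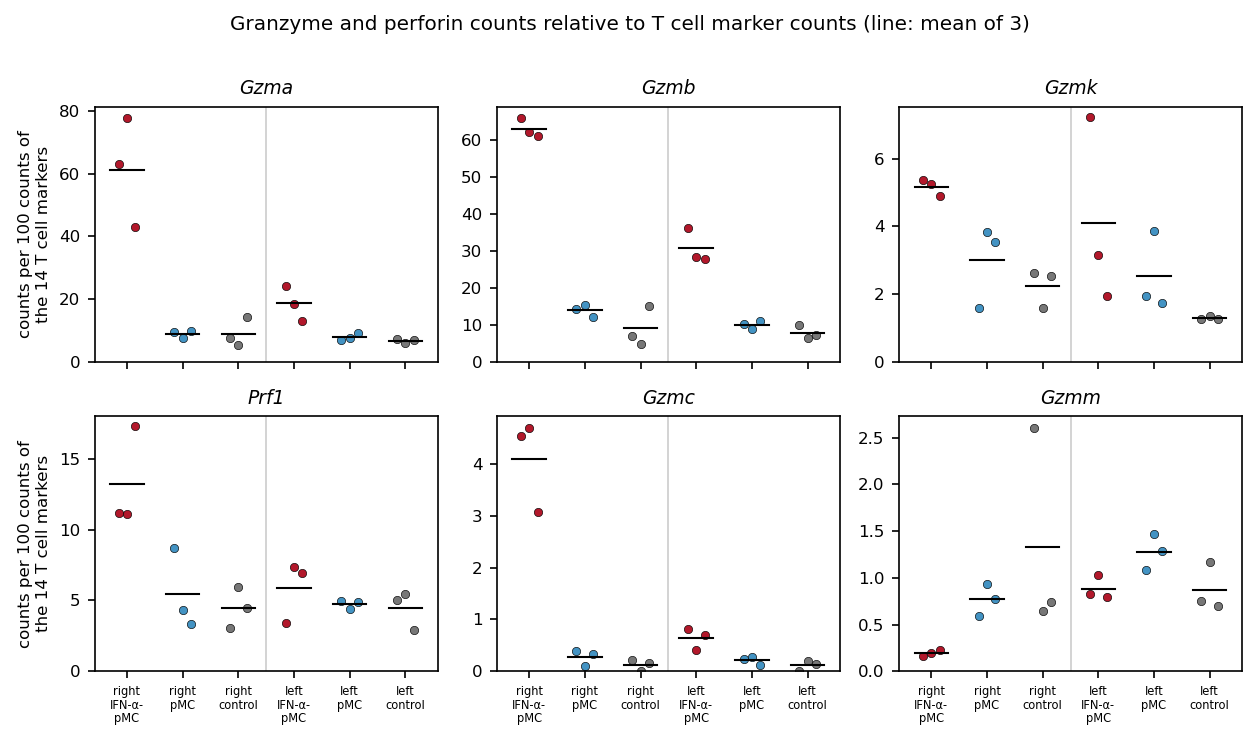
Counts of 6 genes per 100 summed counts of the 14 T cell markers in every library, with the mean of 3 libraries as a line and a scale of its own in each panel. Gzmb is at 61.2 to 66.1 in right and 27.9 to 36.3 in left IFN-alpha-pMC libraries and at most 15.4 elsewhere. Gzmm is lowest in right IFN-alpha-pMC libraries.

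Other cell types moved too. Muscle content was higher with IFN-alpha-pMC on both sides: the 24 skeletal muscle markers summed to 2240 to 5140 CPM in right IFN-alpha-pMC, 151 to 328 CPM in right pMC and 95.7 to 1370 CPM in right control libraries, with 6 of 23 tested called higher over control (Casq1 3.38 ± 0.45, Pgam2 2.06 ± 0.30, Eno3 1.51 ± 0.26, and Myh2 at 0.20 ± 1.44 the least certain). On the left they summed to 873 to 1380 CPM with IFN-alpha-pMC, 73.9 to 216 CPM with pMC and 76.7 to 480 CPM in controls. Gzma and Gzmb had 1.65 and 1.55 CPM in right control 1, the control library richest in muscle (1370 CPM). They had 2.45 and 2.21 CPM in right control 2 and 5.42 and 5.82 CPM in right control 3. These are single libraries and no test of muscle content. With muscle content in the model, 5 of 9 genes were called in right IFN-alpha-pMC over right control, 4 over right pMC, 3 in left IFN-alpha-pMC over left control, 0 over left pMC and 4 in right over left IFN-alpha-pMC. Over all genes that fit called 998, 750, 226, 112 and 322 in these comparisons, against 1601, 1497, 987, 572 and 375 without muscle content in the model.

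Mast cells also hold granule proteases. The 11 mast cell and basophil markers summed to 8.86 to 11.1 CPM in right IFN-alpha-pMC, 2.04 to 4.87 CPM in right pMC and 3.59 to 4.62 CPM in right control libraries, with 2 of 5 tested called higher over control (Hdc 2.14 ± 0.31 and Cpa3 1.64 ± 0.49, while Cma1 stood at 2.47 ± 0.80 with adjusted p = 0.0583 and Kit at 0.35 ± 0.27). The defining Fcer1a and Ms4a2 had at most 4 and 2 counts in any library, Mcpt4 and Mcpt8 at most 9 and 5, and Mcpt1 and Mcpt2 at most 1. Plasmacytoid dendritic cells are known to make granzyme B in human. Their 8 markers summed to 486 to 570 CPM in right IFN-alpha-pMC, 345 to 360 CPM in right pMC and 327 to 329 CPM in right control libraries, with 3 of 8 called higher over control (Bst2 0.85 ± 0.20, Runx2 1.70 ± 0.43, Ccr9 1.65 ± 0.48, and Tcf4 at -0.27 ± 0.23). Most of this sum was Bst2 alone, with 432 ± 63.6 CPM in right IFN-alpha-pMC and 243 ± 34.6 CPM in right control. Of the monocyte and macrophage markers 7 of 11 were called higher (Ly6c2 4.06 ± 0.31, Cd68 1.8 ± 0.20, Fcgr1 2.20 ± 0.27, and Lyz2 at -0.33 ± 0.52), with sums of 1730 to 1840, 726 to 1310 and 660 to 1380 CPM in right IFN-alpha-pMC, right pMC and right control. Of the 5 trophoblast and decidua markers, 0 passed the filter. The part of these cell types in the granzyme and perforin levels was not tested.

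The genes that load, switch on and release these proteins changed in part. Of 11 tested genes of granule biogenesis and release, 5 were called higher in right IFN-alpha-pMC over right control and 0 lower (median 0.21). Nkg7, a granule membrane protein needed for release, was higher by 3.36 ± 0.38 (39.1 ± 7.35 CPM in right IFN-alpha-pMC, 3.84 ± 1.83 CPM in right control), Srgn, the proteoglycan that packs granzymes and perforin, by 2.75 ± 0.37, and Ctsw, a protease of killer lymphocytes, by 3.0 ± 0.44. Rab27a, which docks lytic granules and also melanosomes, stood at 584 ± 50.6 CPM in right IFN-alpha-pMC and 587 ± 52 CPM in right control (0.02 ± 0.15, adjusted p = 0.963). Both tested granzyme-activating peptidases were called higher, Ctsc, the dipeptidyl peptidase that removes the propeptide, by 1.37 ± 0.18 and Ctsh by 1.61 ± 0.44. Over right pMC, 5 of the 11 and 1 of the 2 were called higher, with Ctsh at 1.39 ± 0.43 (adjusted p = 0.0531).

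Of the 4 serpins listed as granzyme inhibitors, 3 were called higher over right control (median 1.79), Serpina3g by 2.36 ± 0.31, Serpinb6b by 1.84 ± 0.39 and Serpinb9b by 1.73 ± 0.51. Serpinb9, the best known inhibitor of granzyme B, had 111 ± 27.4 CPM in right IFN-alpha-pMC and 56.6 ± 29.9 CPM in right control (0.97 ± 0.39, adjusted p = 0.132). Over right pMC, 1 of the 4 was called higher (median 1.09), Serpina3g by 1.87 ± 0.30. Of 13 substrates and death effectors 2 were called higher (median 0.29), among them Gsdmd, a pore-forming gasdermin, by 1.52 ± 0.18. Bid, a death effector of the same list, was at 0.42 ± 0.15 (adjusted p = 0.0928), and Set, a target of granzyme A, at 0 ± 0.14 (adjusted p = 0.994).

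Upstream, 9 of 14 transcription factors of killer lymphocytes were called higher in right IFN-alpha-pMC over right control (median 1.31). Tbx21, which encodes T-bet, was higher by 3.37 ± 0.34 (7.43 ± 2.04 CPM in right IFN-alpha-pMC, 0.722 ± 0.39 CPM in right control), Runx3 by 2.58 ± 0.38 and Stat4, the transducer of interleukin 12, by 1.97 ± 0.26, while Bhlhe40 stood at 0.16 ± 0.19. Of 13 tested genes of cytokine signals, 8 were called higher (median 1.13), among them the receptor chains Il2rb (2.84 ± 0.35), Il2rg (1.61 ± 0.21) and Il12rb1 (2.25 ± 0.32). Ifnar1, a chain of the type I interferon receptor, was at 0.02 ± 0.17.

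On the left, IFN-alpha-pMC over control called 3 of 11 genes of granule biogenesis and release, 2 of 2 activating peptidases, 2 of 4 inhibitors, 1 of 13 substrates, 0 of 14 transcription factors and 4 of 13 cytokine signals, all of them higher. The medians were 0.11, 1.18, 1.54, 0.41, 0.50 and 0.61 for these lists, against 0.07 over all genes. In pMC over control, 0 genes of any list were called on either side.

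Across the 18 libraries, Pearson's r of log2 CPM (prior count 2), given as a description over libraries that share treatment, depth and tissue content, was 0.986 for Gzma with Gzmb, 0.976 for Gzma with Gzmc and 0.945 for Gzma with Prf1, and 0.248 to 0.564 for Gzmm with the other 6 tested. The genes outside the family with the most alike profile were Slfn1 (0.988), Fcgr1 and Nkg7 (0.984 each) for Gzmb, and Ptprcap, Slfn1 (0.986 each) and Lfng (0.985) for Gzma. For Prf1 they were Tbx21 (0.978), Efhd2 and Lcp2 (0.975 each), for Gzmk Ctsw, Gimap7 (0.98 each) and Trbc2 (0.968), and for Gzmc Mmp13 (0.963), Irf7 and Cd28 (0.961 each). For Gzmd they were Pla2g15, Lgmn (0.927 each) and Cnn2 (0.916), and for Gzmm Map3k7cl (0.751), Pcna-ps2 (0.734) and Fam151b (0.705).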

How the data were processed

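The members and gene lists were chosen with earlier results of these data known. The deposited values were whole, unnormalized counts per gene, in a file for each library, as the counter's messages in the files show. The submitters' processing notes name HISAT2 2.1.0 and HTSeq 0.10.0 on the build mm9, with Trimmomatic 0.36 and DESeq2 1.20.0 also listed. No source used here gives the annotation release or the counter's strand setting, so antisense reads may not have been told apart. Rows that name no gene were left out of totals, and 60.2 to 70.7% of pairs were assigned to a gene. Pairs aligned more than once, 18.38 to 24.34% of all pairs, are in no gene's count. Symbols came from GENCODE M21 (GRCm38) for 32897 of 37620 IDs.

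Counts were tested in edgeR 4.0.16 (R 4.3.3) with trimmed-mean scaling, filterByExpr, 1 mean per group over 18 libraries (12 residual degrees of freedom, biological coefficient of variation 23.7%) and Benjamini-Hochberg adjustment over 14849 genes, two-sided. The script was tested on simulated counts. Exact binomial intervals (95%) of count ratios cover counting error only. Relative tests used summed T cell marker counts as library sizes. Named genes were all 9 members, per list the 3 genes with the smallest adjusted p and the 1 with the largest in right IFN-alpha-pMC over right control, and the 3 most alike per tested member (log2 CPM, prior count 2). One gene that this rule names is not reported here. Alternatives were DESeq2 1.42.0, its size factors, no filter, only the groups compared, replicate blocks, muscle content as a covariate, and libraries left out. Sequences were read with Python 3.11.15 and Biopython 1.88.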

Additional observations from a re-analysis of the deposited data

Results flagged for a closer look

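The rise with IFN-alpha-pMC over pMC differed between the injected and the distant side for 2 of the 9 genes by a test of the difference itself. For Prf1 the right effect minus the left effect was 2.79 ± 0.49 on the log2 scale (adjusted p = 0.0245), from 3.97 ± 0.36 on the right and 1.18 ± 0.35 on the left. For Gzma it was 3.19 ± 0.63 (adjusted p = 0.0417), from 5.40 ± 0.50 on the right and 2.22 ± 0.46 on the left. In both cases all 3 right IFN-alpha-pMC libraries were above all 3 left ones. T cell markers moved with this difference, with 5 of 14 called higher and a median of 1.91, against 0.03 over all genes. The NK markers had a median of 1.22 with 0 of 14 called, and the skeletal muscle markers 0.38 with 0 of 23 called. The part of T cell content in the difference was not tested. With 1 library left out, Gzma kept its call in 2 of 12 cases (adjusted p 0.0433 to 0.134) and Prf1 in 4 of 12 (0.0343 to 0.0965). The call of Gzma was also lost with DESeq2 size factors (adjusted p = 0.05) and with muscle content in the model (0.052), and that of Prf1 without the 3 libraries that stood apart (0.0515).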

How the results depend on the processing

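Of 1438 alternatives computed for single genes, 1290 kept direction and side of the threshold, 70 lost the call, 36 gained it and 42 changed sign, of which 0 were among called results. Counts of called members moved beyond 1.5 times as follows. With DESeq2, left IFN-alpha-pMC over left pMC gave 5, and the difference between sides gave 3 over control and 4 over pMC. That difference gave 1 over control with no filter, 1 over pMC with DESeq2 size factors and 1 over pMC with muscle content. Muscle content gave 3 in left IFN-alpha-pMC over left control and 0 over left pMC. Without the 3 libraries that stood apart, right pMC over right control gave 2 and the difference over control 4. NK in place of T cell markers gave 2 for left IFN-alpha-pMC over left control and 1 over left pMC. The cause was not tested.

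With 1 library left out, called members ranged from 5 to 7 in right IFN-alpha-pMC over right control, 6 to 7 over right pMC, 2 to 5 in left IFN-alpha-pMC over left control, 1 to 2 over left pMC, 4 to 5 in right over left IFN-alpha-pMC, and 0 to 2 for the difference between sides over control and over pMC. Relative to T cell markers they ranged from 6 to 8, 6 to 7, 2 to 4 and 0 to 2 in the first 4 of these, and the comparisons without IFN-alpha-pMC stayed at 0.

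The replicate block by number gave 6, 6, 5 and 2 called members in the first 4 comparisons; the block by treatment and number gave 5 in right over left IFN-alpha-pMC and 3 for both differences between sides. Same-numbered libraries correlated from -0.76 to 0.6 in their deviations from group means, and the numbers were not taken as pairs.

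Signs changed in uncalled results only. They were Gzmm in left IFN-alpha-pMC over left pMC (-0.06) and Gzmc in right over left control (0.03) with muscle content, and Gzma (-0.17) and Gzmb (-0.50) in right over left control and Gzmd in the difference over control (1.38) without the 3 libraries. With NK markers they were Prf1 in right pMC over right control (-0.26), left IFN-alpha-pMC over left control (-0.03) and left pMC (-0.02) and left pMC over left control (-0.01), and Gzmm in left IFN-alpha-pMC over left control (-0.53). With 1 library left out, right pMC over right control ran from -0.17 to 0.97 for Gzma, -0.52 to 0.19 for Gzmm and -0.15 to 0.73 for Prf1, and left pMC over left control from 0.00 to 3.64 for Gzmd. Right over left pMC ran from -0.06 to 0.69 for Gzmc and -3.04 to 1.86 for Gzmd. Right over left control ran from -0.17 to 0.93 for Gzma, -0.50 to 0.76 for Gzmb, -0.75 to 0.36 for Gzmc and -0.18 to 0.69 for Prf1. The difference between sides ran from -2.11 to 1.48 for Gzmd over control and -0.18 to 0.48 for Gzmm over pMC. Relative to T cell markers, ranges were -0.33 to 3.0 for Gzmd in right IFN-alpha-pMC over right control, and -0.29 to 0.48 for Gzma, -1.02 to 0.20 for Gzmm and -0.25 to 0.49 for Prf1 in right pMC over right control. On the left they were -0.14 to 0.30 for Gzmm in IFN-alpha-pMC over control, -0.67 to 4.64 for Gzmd over pMC, and 0.00 to 4.62 for Gzmd and -0.14 to 0.29 for Prf1 in pMC over control.

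Calls over all genes moved more. With all libraries and with 1 left out they were 1601 and 1090 to 3946 in right IFN-alpha-pMC over right control, 1497 and 1027 to 1893 over right pMC, 987 and 86 to 494 in left IFN-alpha-pMC over left control, 572 and 33 to 414 over left pMC, 375 and 141 to 360 in right over left IFN-alpha-pMC, and 0 and 0 to 13 for the difference between sides over control and 58 and 0 to 85 over pMC. With only the groups compared, right IFN-alpha-pMC over right control gave 582, left IFN-alpha-pMC over left control 3062 and over left pMC 2538, and right over left IFN-alpha-pMC 190. DESeq2 gave 2823 in left IFN-alpha-pMC over left control, 1984 over left pMC, 566 in right over left IFN-alpha-pMC, and 86 and 253 for the differences over control and pMC. The replicate block by number gave 464 in left IFN-alpha-pMC over left control and 350 over left pMC. Depth limits Gzmd, Gzme, Gzmf and Gzmm, at under 20 counts in most libraries. It also limits Gzmc outside right IFN-alpha-pMC, at no more than 10 counts a library.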
